A study of Mus musculus with 10 samples.

Results

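Regions of open chromatin found in mouse embryonic fibroblasts and at no later stage of reprogramming were taken from 10 ATAC-seq peak lists. ATAC-seq uses a transposase that inserts sequencing adapters into accessible DNA, so a peak marks a stretch that was open in the cells of that library. Overlapping peaks of all 10 lists were merged into 208851 regions, and a list held a region where one of its peaks overlapped it by at least 1 bp. The fibroblast-only regions were chosen by the presence of peaks in all 10 lists: they are the 17371 regions (8.32% of all merged regions) with a peak in both fibroblast lists and in none of the other 8. Absence means only that no peak passed the authors' caller, whose lowest deposited −log10 p was 5, and read totals are not given in the sources used here.

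The series holds 2 libraries at each of 5 stages, all with the strain label C57BL/6 x 129 and 1 batch label. The fibroblasts (MEF) carried the cassette OKSM Col1a1/M2rtTA ROSA26 and were grown in MEF medium without doxycycline, unsorted. Its OKSM part encodes Oct4, Klf4, Sox2 and Myc, the reprogramming factors, and M2rtTA is the activator that needs doxycycline, so the fibroblasts held the cassette uninduced. The DAY3, DAY6 and DAY9 cells had the same genotype and were in ESC medium with 1 ug/ml doxycycline and 50 ug/ml ascorbic acid for 3, 6 and 9 days. DAY3 was unsorted, and DAY6 and DAY9 were sorted for SSEA+, a surface marker of cells on the way to pluripotency. The embryonic stem cells (ESC) were the line V6.5, which carries no cassette, in ESC medium, unsorted, on irradiated feeder cells. All 8 lists in which a fibroblast-only region lacks a peak come from ESC medium, so stage and medium cannot be told apart. ESC libraries may hold feeder DNA, and its part in the result was not tested.

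Most open regions that set one cell type apart from another lie away from promoters, at enhancers, where transcription factors bind and raise the activity of genes that can be far away. In fibroblasts such enhancers are commonly bound by AP-1 (the Fos and Jun proteins), TEAD, RUNX and CEBP factors, which respond to serum, tension, TGF-beta and inflammatory signals. Fibroblasts make collagen and the other proteins of the extracellular matrix, pull on it through actin stress fibres and integrins, and lose this identity when the reprogramming factors are switched on.

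No genome sequence was used here, so no distal member is shown by sequence. Printed instead are RefSeq promoter windows (build GRCm38.p6, the build mm10 of the peak lists) that a fibroblast-only region overlaps by at least 1 bp. A window runs from 250 bases before to 50 bases after a gene start, 300 bases in all. Of 21263 windows, 111 (102 genes) overlapped 101 fibroblast-only regions, and 64 of the 111 were covered from end to end. The 250 bases before the start are printed for 9 of them, 5′ to 3′ on the gene's strand. Capitals mark matches, on either strand, to AP-1 (TGANTCA), TEAD (GGAATG), RUNX (TGTGGT), CEBP (TTGCNNAA), OCT (ATGCAAAT) or KLF (GGGNGTGG). The full palindrome of NFI was searched too.

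The first 5 windows show the strongest promoter region of all and 4 promoters with an AP-1 match. Ifi205, an interferon-induced gene of the innate immune system, lies on the minus strand at chr1:174031756-174032005 and has a RUNX match. Dmd, which encodes dystrophin, lies on the plus strand at chrX:82948620-82948869, this is one of its many starts, and another AP-1 match lies after the part shown. Olr1, the receptor for oxidised LDL, lies on the minus strand at chr6:129507166-129507415. Serpinb2, an inhibitor of plasminogen activation, lies on the plus strand at chr1:107511173-107511422 and also has a CEBP match, which lies before the edge of the region. Il11, a cytokine made by activated fibroblasts, lies on the minus strand at chr7:4778142-4778391 and also has a KLF match.
Ifi205: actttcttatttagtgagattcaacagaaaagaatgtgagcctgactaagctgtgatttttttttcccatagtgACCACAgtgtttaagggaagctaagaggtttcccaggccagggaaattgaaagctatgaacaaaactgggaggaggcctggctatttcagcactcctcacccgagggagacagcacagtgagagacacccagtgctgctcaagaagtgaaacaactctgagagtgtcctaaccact
Dmd: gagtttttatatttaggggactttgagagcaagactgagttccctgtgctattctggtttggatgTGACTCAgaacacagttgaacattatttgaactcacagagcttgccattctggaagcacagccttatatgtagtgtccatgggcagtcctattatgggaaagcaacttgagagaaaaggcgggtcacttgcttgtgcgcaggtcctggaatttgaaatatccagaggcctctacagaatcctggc
Olr1: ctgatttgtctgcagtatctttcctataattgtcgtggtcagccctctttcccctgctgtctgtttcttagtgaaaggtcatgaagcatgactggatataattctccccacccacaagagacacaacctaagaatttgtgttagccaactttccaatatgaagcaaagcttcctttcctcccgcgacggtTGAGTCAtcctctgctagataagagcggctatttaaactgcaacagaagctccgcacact
Serpinb2: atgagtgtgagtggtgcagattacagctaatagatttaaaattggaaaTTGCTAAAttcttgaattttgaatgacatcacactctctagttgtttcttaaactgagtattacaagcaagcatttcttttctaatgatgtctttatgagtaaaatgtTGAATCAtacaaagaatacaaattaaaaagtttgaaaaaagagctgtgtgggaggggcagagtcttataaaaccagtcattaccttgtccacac
Il11: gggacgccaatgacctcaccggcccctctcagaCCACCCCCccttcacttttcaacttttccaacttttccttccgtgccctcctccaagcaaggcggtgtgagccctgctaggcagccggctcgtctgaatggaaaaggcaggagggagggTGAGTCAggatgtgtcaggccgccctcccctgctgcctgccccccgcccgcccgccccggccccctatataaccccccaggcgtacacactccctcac

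The other 4 windows belong to fibroblast and interleukin-1 receptor family genes. Il1r1, the interleukin-1 receptor, lies on the plus strand at chr1:40224830-40225079 and has a CEBP match. Outside this region, all 10 lists had a peak within 1 kb of some start of Il1r1, so the gene is not open at fibroblasts alone. Il1rl1, the receptor for interleukin-33, lies on the plus strand at chr1:40439379-40439628 with a TEAD match and a RUNX match. Col3a1, which encodes the fibrillar collagen III, lies on the plus strand at chr1:45311288-45311537 with a TEAD match and an OCT match. Postn, the matrix protein periostin, lies on the plus strand at chr3:54359017-54359266 and holds no match. The region overlaps only 97 of the 300 bases of the Postn window and ends before the start.
Il1r1: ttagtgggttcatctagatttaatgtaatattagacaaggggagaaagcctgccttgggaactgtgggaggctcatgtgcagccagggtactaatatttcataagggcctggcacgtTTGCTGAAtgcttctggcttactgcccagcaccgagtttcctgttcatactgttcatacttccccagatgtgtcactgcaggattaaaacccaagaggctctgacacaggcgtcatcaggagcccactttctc
Il1rl1: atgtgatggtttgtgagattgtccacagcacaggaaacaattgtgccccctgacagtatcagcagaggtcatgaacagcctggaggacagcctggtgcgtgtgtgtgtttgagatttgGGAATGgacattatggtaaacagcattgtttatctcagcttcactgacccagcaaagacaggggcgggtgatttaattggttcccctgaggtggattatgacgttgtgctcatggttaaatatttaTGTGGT
Col3a1: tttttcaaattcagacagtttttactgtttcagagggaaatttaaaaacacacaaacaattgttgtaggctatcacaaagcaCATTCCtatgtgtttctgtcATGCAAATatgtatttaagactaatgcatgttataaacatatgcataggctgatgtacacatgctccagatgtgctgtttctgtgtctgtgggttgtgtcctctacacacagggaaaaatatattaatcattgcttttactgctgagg
Postn: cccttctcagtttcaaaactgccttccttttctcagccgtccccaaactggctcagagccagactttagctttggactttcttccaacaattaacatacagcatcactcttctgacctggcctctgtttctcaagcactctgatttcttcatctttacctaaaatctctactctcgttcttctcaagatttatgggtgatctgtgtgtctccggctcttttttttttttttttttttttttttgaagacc

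The authors' fold, the ratio of a peak's signal to its local background, was 16.5 in MEF replicate 1 and 11.2 in MEF replicate 2 at the region over the Ifi205 start. It was 12.9 and 9.33 at Dmd, 7.72 and 5.36 at Olr1, and 8.33 and 5.04 at Il1r1. At Postn it was 8.19 and 5.50, at Col3a1 5.29 and 3.07, at Serpinb2 3.85 and 3.33, at Il1rl1 3.78 and 3.22 and at Il11 3.12 and 3.34. Replicate 2 was the higher one at Il11, and replicate 1 at the other 8. By the rule, no later list had a peak over any of these 9 regions.

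An AP-1 match was present in 36 of the 111 promoter windows under a fibroblast-only region (32.4%), against 6.99% of all 21263 windows. The share was 3.36% (8 of 238) under regions with a peak in both ESC lists alone, 3.86% under regions of all 10 lists, 4.37% under the other regions with a peak in both MEF lists, and 10.6% under no region. RUNX matches were in 27.9% of the 111 windows against 15.0% of all, CEBP matches in 21.6% against 10.2%, TEAD matches in 20.7% against 13.6% and OCT matches in 2.70% against 1.66%. KLF matches were in 14.4% against 19.4%, and NFI had no match in the 111. Of the 111 windows, 30 held none of the 7 motifs.

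These promoters also differ in base composition from the usual one. Their median number of CpG dinucleotides was 4 and their median GC content 49.7%, against 13 and 56.3% over all windows and 23 and 62.3% under regions of all 10 lists. With only windows of fewer than 10 CpG compared, AP-1 matches were in 33 of 98 windows (33.7%), against 11.1% of all such windows, 5.47% under ESC-only regions and 10.8% under no region. At an authors' fold of at least 5 in both MEF lists only 18 windows were left, and 3 of them (16.7%) held an AP-1 match. Matches were counted over the whole window, also where the region covers it in part. A match is a run of letters and not a bound site, the windows of 1 gene overlap, and 1 region can cover several windows.

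**Figure D1:**
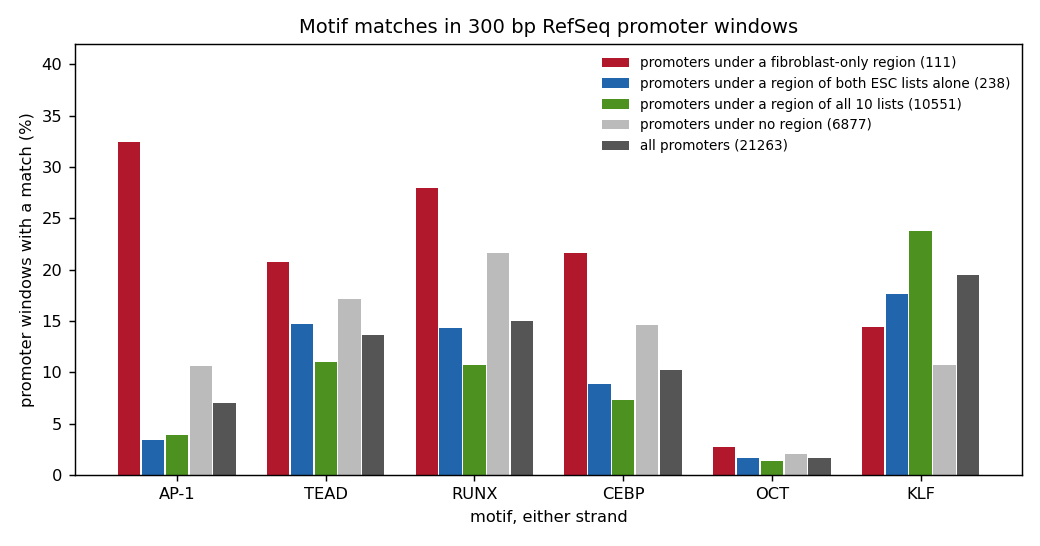
Share of 300 bp RefSeq promoter windows (vertical axis, %) with at least 1 match to each motif (horizontal axis), for windows under fibroblast-only regions, under regions of both ESC lists alone, under regions of all 10 lists, under no region, and for all windows, with the number of windows in brackets. The AP-1 bar for fibroblast-only regions stands at 32.4%, and the other 4 AP-1 bars lie between 3.36% and 10.6%.

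Of the 46089 regions called in both MEF lists, 37.7% were fibroblast-only. The other 28718 had a peak in at least 1 of the other 8 lists, and 15359 of these had one in all 10 lists. Just outside the rule, 2579 regions had peaks in both MEF lists and in exactly 1 other list. That list was DAY3 replicate 1 for 592 and replicate 2 for 577, DAY6 replicate 1 or 2 for 215 and 157, DAY9 for 100 and 122, and ESC for 486 and 330. On the other side, 15092 regions had a peak in MEF replicate 1 alone and 12385 in MEF replicate 2 alone. The number of members therefore rests on the agreement of the 2 MEF lists: it rose to 30256 when MEF replicate 1 was left out and to 32656 when MEF replicate 2 was left out.

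The lists differed in length and in how well replicates matched. They held 74444 and 64295 peaks in MEF, 45497 to 65145 in the DAY3 and DAY6 lists and 77787 to 88980 in the DAY9 and ESC lists. Of the regions in either list of a stage, 51.6% were in both for MEF, 66.9% for DAY3, 60.3% for DAY6, 73.2% for DAY9 and 52.3% for the ESC pair. The median absolute log2 ratio of fold between replicates, after centring, was 0.14 in DAY3 and 0.11 in DAY9, against 0.23 in MEF, 0.20 in DAY6 and 0.24 in ESC. Each of the 2 closest pairs could be 1 sample, and values with 1 list from each are given among the alternatives. Nothing in the labels says that the 2 libraries of a stage came from separate cultures.

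The fold of the members, which the rule used only through the presence of a peak, lay between 1.60 and 21.2 in MEF replicate 1, with a median of 5.69 and quartiles of 4.30 and 8.15. In MEF replicate 2 it lay between 1.28 and 15.5, with a median of 3.75 and quartiles of 3.00 and 4.98. The members sat in the middle of their own lists, with their median fold at the 55.3rd and 52.7th percentile. The other regions of both MEF lists had medians of 7.76 and 4.61, regions with exactly 1 other list 6.34 and 3.97, and regions in 1 MEF list alone 4.04 and 2.90. Replicate 1 gave the higher fold at 86.7% of the members. The Spearman correlation of the 2 folds over the 17371 members was 0.51, against 0.77 over the other regions of both MEF lists, as a description over regions that share 2 libraries.

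Weaker fibroblast peaks were fibroblast-only more often than strong ones. In 4 bins of about equal size by the replicate 1 fold, 53.5%, 43.1%, 33.7% and 20.3% of the regions of both MEF lists were members, from the lowest to the highest bin. By the replicate 2 fold the shares were 46.8%, 45.0%, 38.4% and 20.2%. Position separated them more: of the 34280 regions over 1 kb from the end of any protein-coding gene 49.2% were members, and of the 11809 within 1 kb 4.35% were. Among the former, the share still fell from 58.7% in the lowest to 37.0% in the highest bin of replicate 1. In replicate 2 the lowest 3 bins lay between 50.4% and 52.3%, and the highest bin was at 38.1%.

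**Figure D2:**
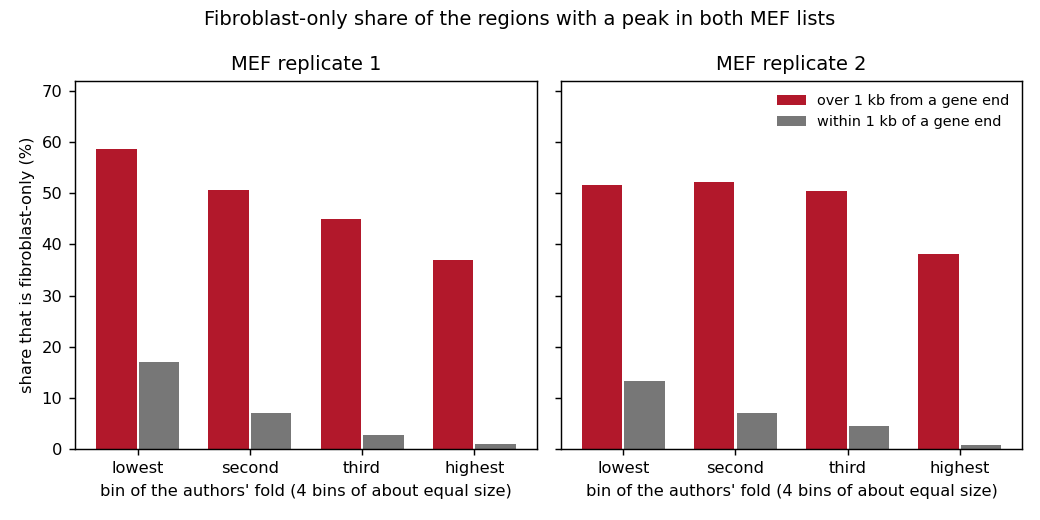
Share of regions found in both MEF lists that are fibroblast-only (vertical axis, %), by rank of the authors' fold in each MEF replicate, cut into 4 bins of about equal size from lowest to highest (horizontal axis), for regions over 1 kb from and within 1 kb of a gene end. Away from gene ends the share is 37.0% or more in every bin of both replicates, and within 1 kb of one it is 17.0% or less.

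The members lay almost wholly away from gene ends. Only 514 of 17371 (2.96%) were within 1 kb of either end of a protein-coding gene. The share was 39.3% over the other regions of both MEF lists, 64.3% over regions of all 10 lists, 4.21% over the 16521 ESC-only regions and 10.1% over all merged regions. Inside a protein-coding gene lay 8414 members (48.4%), against 69.8%, 82.1%, 38.6% and 51.3% in the same order. Whether these lie in exons or introns was not analysed here.

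Gene starts were rarer still. The promoter table holds starts of 17492 of the 21887 protein-coding genes, so distances to a start can be overstated. No start was used on chromosome 18, which leaves 16689 members, of which 91 covered a start and 130 more lay within 1 kb (1.32% together). Another 1865 (11.2%) lay 1 to 10 kb from the nearest start, 5036 (30.2%) at 10 to 50 kb, 2896 (17.4%) at 50 to 100 kb, 4959 (29.7%) at 100 to 500 kb and 1712 (10.3%) farther. Their median distance was 67.0 kb, against 75.1 kb for ESC-only regions, 47.2 kb for all regions and 14.2 kb for the other regions of both MEF lists. The distance profile of the members thus lay near that of the ESC-only regions and far from that of the fibroblast regions shared with later stages.

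**Figure D3:**
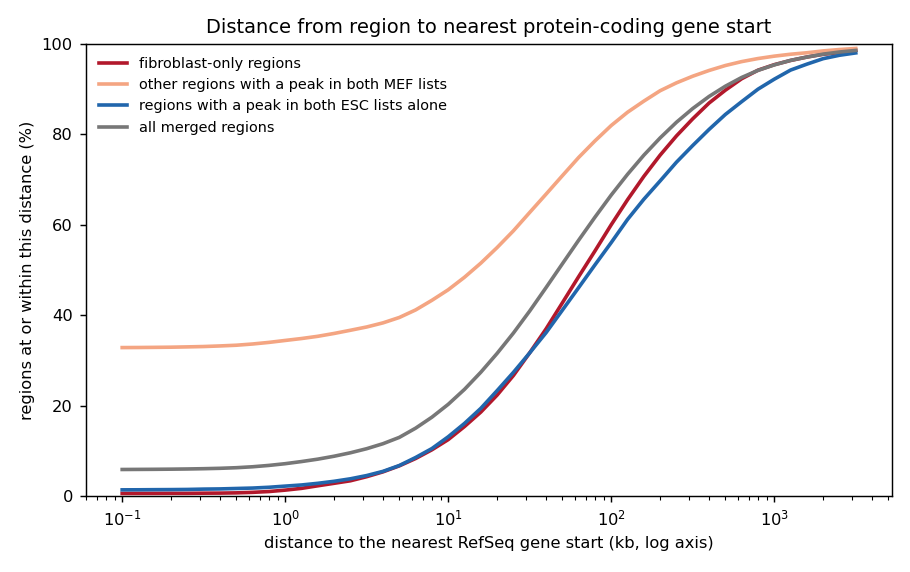
Share of regions (vertical axis, %) at or within a given distance of the nearest RefSeq gene start (horizontal axis, kb, log scale) for fibroblast-only regions, the other regions of both MEF lists, regions of both ESC lists alone and all merged regions. At 1 kb the fibroblast-only curve is at 1.32% and the curve of the other regions of both MEF lists at 34.4%.

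Members were narrow, with a median merged width of 559 bp (quartiles 454 and 711) and 10.5 Mb in all. The median was 964 bp for the other regions of both MEF lists, 637 bp for ESC-only regions and 509 bp for all regions. A region merged from more lists can be wider by construction. Among regions of 400 to 800 bp the order of the gene end shares was kept, at 2.90% for members, 12.4% for the other regions of both MEF lists, 4.65% for ESC-only regions and 27.0% for regions of all 10 lists.

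The nearest region with a peak in both lists of a given later stage was usually many kilobases from a member. Distances to regions of a single later list, or of any later stage at once, were not computed and can only be shorter or equal. The median distance was 20.6 kb to a region of both DAY3 lists, 17.6 kb for DAY6, 13.0 kb for DAY9 and 15.4 kb for ESC. Within 5 kb of such a region lay 17.9%, 20.3%, 26.5% and 22.0% of the members. The lists differ in length, and a longer list puts regions closer by number alone.

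By chromosome, members were between 7.45% (chromosome 17) and 9.87% (chromosome 19) of the autosomal regions. On chromosome X they were 249 of 5450 regions (4.57%), and on chromosome Y 4 of 334. Chromosome X held 1.43% of the members, 2.01% of the other regions of both MEF lists, 4.44% of the ESC-only regions and 2.61% of all regions. The sex of the embryos is not stated in the labels, and its part in this was not tested.

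The 12 members with the largest fold in the weaker replicate all stood at 13.9 or more in both MEF lists, and 4 of them lay inside a gene. The first was an intergenic region 78.1 kb from Ctnna2, a gene for an adhesion protein of neurons, at chr6:76802790-76803492, with folds of 16.1 and 15.5. Regions inside Pth2r, a receptor for a parathyroid hormone family peptide (18.9 and 15.4), and Cbfb, the partner subunit of the RUNX factors (16.5 and 15.0), followed closely. Intergenic regions stood near Dnajb9 (16.5 and 15.4), near Vegfc, a growth factor of lymphatic vessels (19.3 and 15.3), near the adhesion gene Nectin3 (20.2 and 14.9) and near Pcdh20 (18.2 and 14.4).

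The other 5 of the 12 included a region inside Il1rl1 at chr1:40444648-40445342, with folds of 18.9 and 14.3, and one inside Nepn, a small leucine-rich matrix protein, with 16.3 and 13.9. One lay 610.6 kb from Nr2f1, an orphan nuclear receptor gene of mesenchyme and neural crest, and had folds of 19.5 and 14.1. The last 2 were near Serpina1f (15.3 and 14.2) and near C9orf72 (14.3 and 13.9). At the weak end of the members, a region inside Sfi1 had folds of 1.60 and 1.28.

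Of 21887 protein-coding genes, 6024 (27.5%) had a member inside or within 10 kb, 4166 (19.0%) had one inside and 1114 (5.09%) had at least 3. ESC-only regions reached 5849 genes (26.7%). Of the 130710 merged regions inside or within 10 kb of such a gene, 10071 (7.70%) were fibroblast-only. The gene count depended on the replicates, as 40.6% of genes had a member within 10 kb without MEF replicate 1 and 40.0% without MEF replicate 2. Long genes hold more regions of any kind, so density per 100 kb of the gene and its flanks is given below: it was 0.76 members and 0.63 ESC-only regions over all genes.

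The genes with most members were long. Macrod2, an ADP-ribose hydrolase gene of 1998 kb, held 19 of them, and Dlg2, a synaptic scaffold gene of 1973 kb, held 16, at densities of 0.94 and 0.80, close to that of all genes. Others stood well above it. Pakap had 17 members (3.52 per 100 kb), Dlc1 14 (3.45), Glis3 13 (2.95), Slc4a4 13 (2.79) and Syn3 13 (2.76). Lpp, a focal adhesion protein of smooth muscle and fibroblasts, had 16 members (2.58). Arhgap26 had 17 (2.14), and Ptprm, a receptor phosphatase of cell contacts, had 15 (2.12). Rarb, a retinoic acid receptor, had 14 (2.08), while Dnm3 had 13 (2.52), Cacna1c 14 (2.22), Asic2 14 (1.26) and Auts2 14 (1.24). ESC-only regions were as many as members in Auts2 (14) and fewer in the other 14 genes: 11 in Macrod2, 6 each in Dlg2, Rarb and Slc4a4, 5 each in Dlc1 and Dnm3, 3 each in Arhgap26 and Asic2, 2 in Glis3, 1 each in Pakap, Ptprm, Cacna1c and Syn3, and 0 in Lpp.

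Among genes with at least 4 members the 10 densest were 1.0 to 57.4 kb long. A density ranked at a minimum count favours small windows. Olfr433, an olfactory receptor gene beside Ifi205, had 4 members in a window of 21.0 kb, or 19.0 per 100 kb. Apol9b, an interferon-inducible apolipoprotein, had 14.6, Aspn 11.6, Epha1 11.5, Ms4a6d 10.5 and Ifi47, an interferon-induced GTPase, 9.90. Zcchc24 had 7.75, the transcription factor gene Atf1 7.49, Rsph3a 7.42 and Nlrc3 7.24. Of these 10, Epha1, Ms4a6d, Ifi47 and Atf1 also had 1 ESC-only region each.

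Genes rich in members mostly had an open start at every stage. Counted for each list was a peak within 1 kb of any start of the gene, not always the same start. Such peaks were in all 10 lists for 71.6% of the 859 genes with at least 3 members and a start in the promoter table. The share was 52.9% of all 17492 genes with a start and 48.3% of those with 0 members. Among genes with at least 5 members it was 77.1% of 323. These genes were long (median 188.8 kb for at least 3 members, 17.2 kb for all), so length and start cannot be told apart here. Only 85 genes (0.486%) had such peaks in both MEF lists and in no other list.

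Of 30 listed genes of the extracellular matrix, 21 had at least 1 member inside or within 10 kb, against 27.5% of all genes. Their density was 2.38 members and 0.41 ESC-only regions per 100 kb, against 0.76 and 0.63 over all genes. These 2 backgrounds apply to the lists below too. Gene length differed: the median was 37.0 kb here and 17.2 kb over all genes. It was 69.0 kb for the TGF-beta list, 94.8 kb for the adhesion list and 71.9 kb for the growth factor list. Fbn1, which encodes the microfibril protein fibrillin, had 6, with folds between 3.19 and 10.9 in replicate 1 and between 2.68 and 3.54 in replicate 2. Timp2, an inhibitor of matrix proteases, had 5 and 0 ESC-only regions, and its strongest pair of folds was 8.57 and 5.40. Col5a1 had 5, Loxl2, a collagen crosslinking enzyme, 4, and Col12a1, Fbln2, Col1a1 and Col3a1 3 each. Col5a2, Col6a1, Col6a2, Sparc, Dcn, Lum, Eln, Fbln5 and Timp1 had 0. At Col1a1, the gene of the main collagen I chain, the 3 members had folds of 3.41, 4.70 and 5.13 in replicate 1 and 2.47, 3.17 and 2.97 in replicate 2. This gene was also the site of the cassette in every library but ESC.

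The TGF-beta pathway drives matrix production, and 16 of its 20 listed genes had a member (2.39 per 100 kb, 0.80 for ESC-only). Ltbp1, which holds latent TGF-beta in the matrix, had 11, all inside the gene, with folds up to 11.0 in replicate 1 and up to 6.89 in replicate 2. Smad3, the transcription factor that carries the TGF-beta signal, had 7 inside the gene and 0 ESC-only regions, with folds of 3.85 to 8.48 and 2.51 to 5.63. Tgfbr3, the coreceptor betaglycan, had 5, the type 1 receptor Acvr1 4 and Bmpr1a 3. ESC-only regions numbered 4 at Ltbp1, 4 at Acvr1, 2 at Tgfbr3 and 1 at Bmpr1a.

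Contractile and cytoskeletal genes had a member in 10 of 18 (2.19 per 100 kb, 0.55 for ESC-only). Palld, a protein of actin bundles, had 9, Cald1, which regulates actin and myosin, 7, Mrtfa and Mrtfb, actin-sensing coactivators of SRF, 6 and 5, and Actn1 4. These genes are 92.9 to 391.3 kb long, against a list median of 20.8 kb. Acta2, Tagln, Cnn2, Myl9, Tpm1, Vim, Vcl and Srf had 0. At Cald1 the 7 folds ran from 2.58 to 5.08 in replicate 1 and from 2.61 to 4.46 in replicate 2, so none of these regions stood high in either list. Integrins and adhesion genes had a member in 14 of 16 (1.79, 0.44 for ESC-only), led by N-cadherin Cdh2 with 7, Ncam1 with 5, and Itga2, Itga8, Itgb3, Itgb5 and Cdh11 with 3 each.

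In the TEAD and YAP pathway, which senses tension, 9 of 14 genes had a member (2.1 per 100 kb, 0.73 for ESC-only). Vgll4, a cofactor that competes with YAP for TEAD, had 7 and 0 ESC-only regions, and Vgll3, another TEAD cofactor, had 4 in a gene of 51.2 kb. Tead1 had 4 and Wwtr1, which encodes TAZ, 3. RUNX and CEBP factor genes had one in 5 of 8 (1.33, 0.36 for ESC-only), and 5 members lay in Runx1, with folds of 3.25 to 6.34 and 2.68 to 3.86. The genes of the AP-1 factors themselves had one in 3 of 10 (1.02, 0.68 for ESC-only), a share near the 27.5% of all genes. Without MEF replicate 1 or 2 it was 5 or 8 of these 10.

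Mesenchymal transcription factors had a member in 19 of 40 genes, at 1.09 per 100 kb against 0.72 for ESC-only. Counted gene by gene, members were 8.22% of the regions at these genes, near the 7.11% over all genes. The long genes Foxp1 (8), Nfia (7), Ebf1 (6) and Foxp2 (4) had most, and Ebf2, Zeb1, Zeb2 and Prrx1 had 3 each. Prrx1, a homeobox gene of limb and connective tissue mesenchyme, held its 3 members inside the gene, with folds of 5.60, 6.12 and 4.55 in replicate 1 and 3.33, 3.11 and 3.00 in replicate 2. Twist1, Snai2, Tbx5 and Tcf21 had 0. Growth factor receptors and ligands had a member in 12 of 16 (1.15, 0.54 for ESC-only), with 10 in the long gene Nrg1 and 3 each in Fgfr2, Egfr and Fgf2. Members were 9.73% of the regions at this list.

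Cytokine and interleukin-1 receptor family genes had a member in 8 of 17 (1.78, 0.44 for ESC-only). At Il1r1 the 4 members, all inside the gene, had folds of 8.33, 7.84, 3.99 and 10.9 in replicate 1 and 5.04, 4.64, 6.85 and 6.11 in replicate 2. Without MEF replicate 1 or 2 the list had 12 or 13 genes with a member. The neighbouring Il1rl1 also had 4, one of which, with folds of 18.9 and 14.3, was among the 12 strongest. The other 3 stood lower, at 6.12, 7.73 and 3.78 in replicate 1 and 2.90, 5.36 and 3.22 in replicate 2.

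Pluripotency, epithelial and housekeeping lists stood below the density of all genes. Pluripotency genes had a member in 2 of 18 (0.40 per 100 kb, 4.23 for ESC-only), epithelial genes in 2 of 12 (0.34, 0.68) and housekeeping genes in 2 of 12 (0.52, 0.52). Without MEF replicate 1 the counts were 4, 5 and 4, and without MEF replicate 2 they were 6, 5 and 4. The lists overlap in part and differ in gene length, and long genes reach a count more easily than a density.

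**Figure D4:**
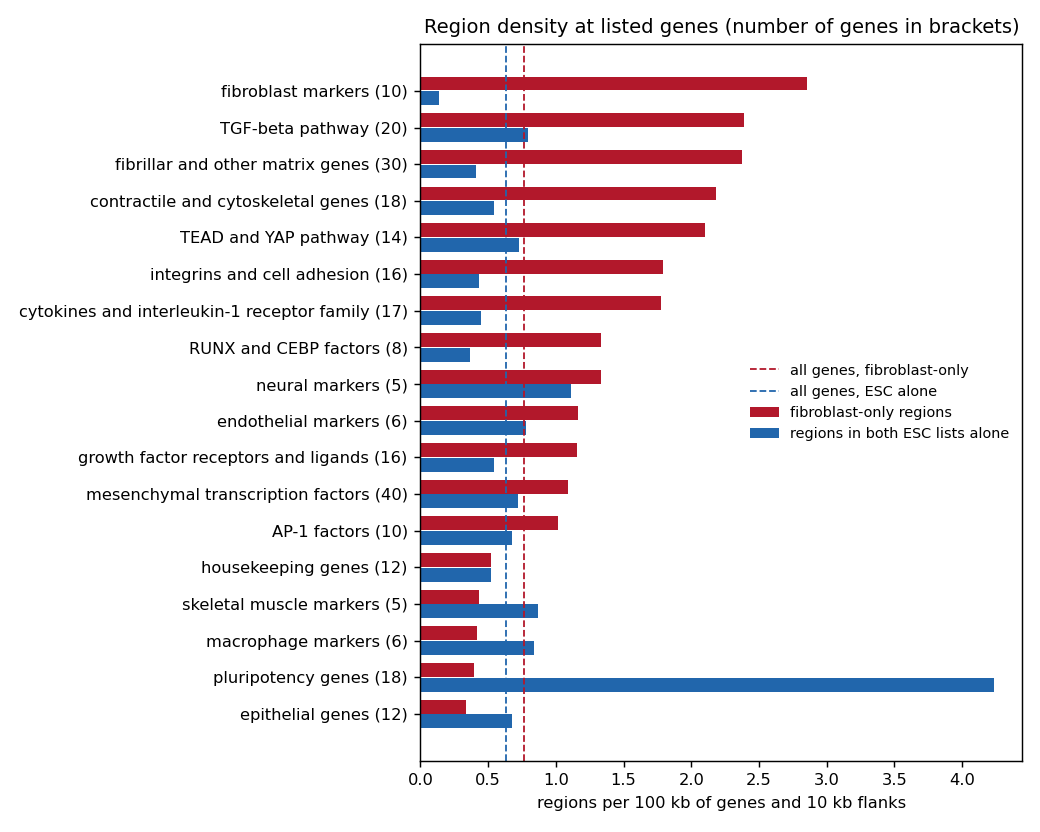
Fibroblast-only regions and regions of both ESC lists alone per 100 kb of the listed genes with 10 kb on either side (horizontal axis), for 18 gene lists (number of genes in brackets), with dashed lines at the values over all protein-coding genes (0.76 and 0.63). Fibroblast markers stand highest for fibroblast-only regions (2.85) and pluripotency genes for ESC-only regions (4.23).

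The fibroblast label was set beside marker genes. Of the 10 fibroblast markers, 8 had a member (2.85 per 100 kb, 0.14 for ESC-only), against 27.5% of all genes (0.76 per 100 kb). Pdgfra and Dcn had 0. Of the 7 with a known start, 6 had a peak within 1 kb of one in both MEF lists, against 57.3% of all 17492 genes with a start. The exception was Pdgfra, and for 2 of the 7 such peaks were in all 10 lists. The rule used peaks of the MEF lists, so these start counts describe the libraries and do not test the members. Some of these genes are in the matrix and transcription factor lists too. The same was counted for markers of other cells that such a culture could hold. Both MEF lists had a peak near a start for 0 of 4 endothelial, 0 of 3 macrophage, 0 of 4 skeletal muscle and 1 of 3 neural genes. Members lay at 4 of 6 endothelial genes (1.17 per 100 kb) and 2 of 5 neural genes (1.33), both above the share and density of all genes. Of the neural genes, Ncam1, which is 297 kb long and also in the adhesion list, had 5. Tubb3 had 1, and Pax6, Sox10 and Neurod1 had 0. Members lay at 2 of 6 macrophage genes (0.42) and 1 of 5 skeletal muscle genes (0.44, and 2 of 5 when either MEF replicate was left out), both below the density of all genes. The endothelial cadherin gene Cdh5 held 3, with folds of 6.64, 9.96 and 3.75 in replicate 1 and 3.13, 7.66 and 2.78 in replicate 2. The part of other cell types in these regions was not tested.

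Along the chromosomes, members lay side by side more often than their number among all regions: the next region along the chromosome was also a member for 2417 (13.9%), against a share of 8.32% among all regions. ESC-only regions followed each other at 13.7%, with 7.91% of all regions being ESC-only. The share with a member next rose to 23.6% without MEF replicate 1 and 26.7% without MEF replicate 2, as the number of members rose too. Members were also joined across the gap that is standard for stitching super-enhancers, and 1534 (8.83%) fell in 463 clusters of at least 3, of which 352 held 3, 83 held 4, 22 held 5 and 6 held 6. The others were 12127 single members and 1855 pairs. The same joining put 5.04% of the ESC-only regions and 20.8% of the other regions of both MEF lists into clusters. The share depends on which MEF lists are used: without MEF replicate 1 it was 15.9% and without MEF replicate 2 20.1%, and with a fold of at least 5 in both lists it was 0.476%.

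The median span of a cluster was 14.1 kb, a value that the joining gap limits. Of the 463 clusters, 205 (44.3%) lay wholly inside genes and 225 (48.6%) lay wholly outside them. In 164 (35.4%) no region of another kind lay between the members. The tightest cluster of 6 spanned 19.1 kb inside Vgll4, between 20.7 and 39.5 kb from its start, with folds of 3.80 to 5.89 in replicate 1 and 2.68 to 4.93 in replicate 2. This stretch held 9 regions in all, and peaks of DAY9 and ESC lists lay between its members. The Vgll4 start itself was open in all 10 lists. Further clusters of 6 lay inside Phldb2, a protein that anchors microtubules at the cell cortex (23.4 kb), inside Pitpnm3 (29.2 kb) and inside Zfp469, a gene tied to corneal collagen (42.2 kb).

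Of the clusters of 6, those at Lmcd1 and Prg4 reached the highest folds in replicate 1 alone. In replicate 2 their highest folds were 6.87 and 6.54, against 7.24 at Zfp469, 7.14 at Pitpnm3, 6.70 at Phldb2 and 4.93 at Vgll4. At Lmcd1, a LIM protein that binds GATA factors, the 6 members across 36.8 kb had folds of 13.4, 10.2, 15.2, 4.68, 6.45 and 3.25 in replicate 1 and 6.60, 4.29, 6.87, 2.90, 4.08 and 4.29 in replicate 2, in the order of their position. Near Prg4, which encodes the joint lubricant lubricin, the members across 37.5 kb ran from 3.35 to 13.1 and from 3.54 to 6.54. At Lmcd1 the first 3 stood above the last 3 in replicate 1, and in replicate 2 the values overlapped.

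Among clusters of 5, the one near Sash1 spanned 12.8 kb and held members alone, 5 of 5 regions, and the one near Arf6, a small GTPase gene, spanned 11.6 kb with 5 of 6. Both were intergenic, the first at least 82.1 kb and the other at least 90.1 kb from a start in the promoter table. That table lacks some genes, and the nearest starts in it for the second cluster were those of Nemf and Gm46353. The cluster between Mepe and Spp1, genes for phosphoproteins of bone and other matrix, spanned 19.3 kb, with folds of 4.24 to 7.30 and 3.16 to 5.15. The cluster over Aspn, which encodes the small leucine-rich matrix protein asporin and lies within the gene Cenpp, spanned 18.7 kb. Its 5 members had folds of 3.85, 6.03, 3.70, 9.14 and 5.21 in replicate 1 and 3.65, 4.13, 2.51, 4.47 and 3.33 in replicate 2, and the second of them covered the Aspn start.

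**Figure D5:**
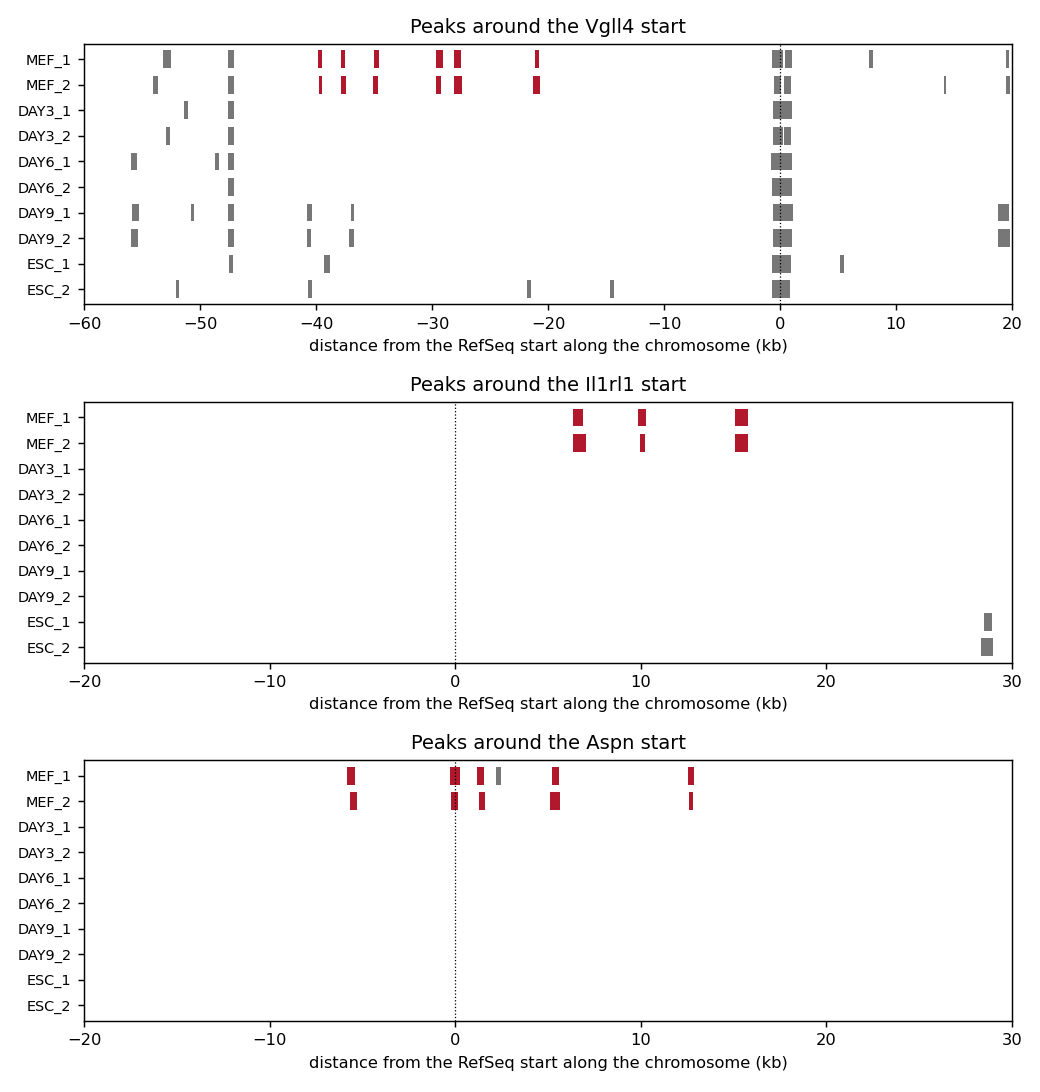
Peaks of the 10 lists (rows) around a RefSeq start of Vgll4, Il1rl1 and Aspn (dotted line), with distance along the chromosome in kb on the horizontal axis. Peaks in fibroblast-only regions are red and all other peaks grey. The 6 red regions of Vgll4 stand apart from a start with a peak in every list, and grey peaks of DAY9 and ESC lists lie between them. Around Aspn the 5 red regions and 1 grey peak of MEF replicate 1 are the only peaks in view.

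Members also lay near microRNA genes: 139 of 1005 hairpins (13.8%) had one within 10 kb, 21 of them had 2, and 118 hairpins had an ESC-only region. Neighbouring hairpins can count the same regions. The hairpins named here were picked as known ones, and the highest folds of the 21 were at Mir190a, up to 16.6 and 6.87. Mir29a and Mir29b-1, neighbours on chromosome 6 with overlapping windows, had the same count of 2 members and the same highest folds, 5.39 and 5.46. The miR-29 family is known for repressing collagen genes, and both mature forms share a seed, bases 2 to 8, printed in capitals. Mir206 and Mir133b, a muscle pair on chromosome 1 with overlapping windows, also shared the count of 2 and the highest folds, 9.75 and 5.36. Mir155, a microRNA of immune activation, had 2 with folds up to 8.92 and 5.49, and Mir34a, a target of p53, had 2 with folds up to 7.23 and 5.19. A region near a hairpin says nothing of its level, which was not measured.
mmu-miR-29a-3p: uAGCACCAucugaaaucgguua
mmu-miR-29b-3p: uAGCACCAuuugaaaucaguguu
mmu-miR-206-3p: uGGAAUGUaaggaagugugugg
mmu-miR-133b-3p: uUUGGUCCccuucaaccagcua
mmu-miR-155-5p: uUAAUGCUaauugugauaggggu
mmu-miR-34a-5p: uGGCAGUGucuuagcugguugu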

How the data were processed

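Accessibility was taken from 10 deposited ATAC-seq peak lists, 1 per library, in mm10. The submitters' processing notes name Bowtie2 2.3.2, MACS2 2.1.1 and deepTools 2.3.6. Their roles, the parameters, the handling of duplicates and the transposase offset are not given in the sources used here. The authors deposited for each peak a score, a fold (a ratio to local background) and −log10 p and q values. The fold was compared between the replicates of a stage and not between stages. Its median was 5.26 in the list of MEF replicate 1 and 3.62 in that of replicate 2. Rankings and cutoffs that use both lists were not scaled for this. Depth is unknown.

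Peaks were merged and regions selected with Python 3.11.15, numpy 2.4.6, pandas 2.3.3 and scipy 1.17.1, tested on simulated lists. Genes and starts came from RefSeq (GRCm38.p6), and 17492 of 21887 protein-coding genes had a start. The rule used peak presence in all 10 lists, so no test was made. Clusters joined members across the standard gap for stitching super-enhancers, with 25 and 50 kb as alternatives. The summit column was empty of positions, so peak centres served for the planned windows around summits, and motifs were searched in promoter windows only. Members, lists and named genes were chosen with earlier results of these data known. Genes were named by number of members, density, fold in the weaker replicate, and cluster size. For 1 listed gene the values are not reported here. Alternatives covered overlap, list length, fold, distance, gap, gene window and each library left out.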

Additional observations from a re-analysis of the deposited data

How the results depend on the processing

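No paired analysis was possible because the results come from counts and shares with no test. With the top 50% of each list by score, lists of equal length and a fold of at least 5 in both MEF lists, the number of members was 9273, 10951 and 3778. In the same order the median width was 667, 624 and 667 bp, the share in clusters 3.31%, 4.22% and 0.476%, and the share of genes with a member 18.2%, 20.4% and 8.32%. The share near a gene end was 3.43% with the top 50%, 2.49% with the fold minimum, 6.81% within 2.5 kb and 1.32% for starts alone. The fold minimum also gave 45.5% inside genes, 2.75% for a next region that is a member, 42 of the 131 listed genes with a member, and an AP-1 share of 16.7%. Equal lengths gave 13.1% for the next region. All genes of the table gave 58.3% inside, and counting members inside genes alone gave 19.0% of genes. Gaps of 25 and 50 kb put 21.6% and 42% of the members in clusters.

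With 1 list each of DAY3 and DAY9, chosen after seeing the data, 9.39% were in clusters, 14.5% had a member next and 28.3% of genes had one. Leaving out each library in turn gave 17483 to 32656 members, 2.97% to 3.23% near a gene end, 47.9% to 48.8% inside genes, and widths of 384 to 561 bp. It gave 8.88% to 20.1% in clusters, 14.0% to 26.7% with a member next, 27.7% to 40.6% of genes, 131 to 174 listed genes and an AP-1 share of 26.1% to 32.8%. The 2 highest member counts came from leaving out a MEF library. The other alternatives moved the counts of single lists by over 1.5 times in 45 cases and by less in 99. Read depth is unknown, so a missing peak may be a weak one.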

Other observations

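The following genes were chosen after their values were seen. They are single examples from the 102 genes whose promoter window a fibroblast-only region overlaps, and no share of such genes over all promoters was computed. Genes known to be induced by interferons were, beside Ifi205, Ifi47 (folds of 11.8 and 4.83), Ifit1 and Ifit3, which bind viral RNA or its partners (3.40 and 2.68, 3.40 and 3.23), Isg20 (3.93 and 3.16), Uba7, the activating enzyme of ISG15 (6.99 and 2.90), and Apol9b (2.41 and 4.17). Apart from Ifi205, which had 16.5 and 11.2, their folds in replicate 2 stayed below 5.

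Among matrix genes, Ogn, a small leucine-rich matrix gene near Aspn, had folds of 9.51 and 3.00 over its promoter window. Col6a3, a chain of collagen VI, had 4.12 and 3.76, the protease gene Ctsk 4.35 and 2.87, the microfibril gene Mfap2 2.77 and 3.44, and the hyaluronan synthase gene Has1 3.33 and 2.78.

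Among genes known from leukocytes, the complement receptor gene C3ar1 had folds of 3.62 and 3.75 and an AP-1 match, Havcr2, an immune checkpoint receptor, had 8.94 and 2.79, and Cd300lb had 3.88 and 3.65. Of the 3 macrophage markers with a known start, 0 had a peak within 1 kb of it in both MEF lists. The part of such cells was not tested.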
